A study of Mus musculus with 6 samples.

Results

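The transcripts described here are those of 8 cytokine genes that CD4+ T cells can make besides Il4 and Il21: Ifng, Tnf, Il10, Il2, Csf1, Lif, Tnfsf8 and Tnfsf11. They were taken by gene symbol from the 32285 genes of the single-cell matrices, 1 row each, and not by their values. The cells were OT-II T cells, which carry a T cell receptor for an ovalbumin peptide, from RAG-deficient donors, so that all donor T cells share that receptor. In the mutant group the donor cells were heterozygous for a knock-in allele of the type I TGF-beta receptor Tgfbr1 (M318R, written TgfbrIWT/mut in the labels), an allele of Loeys-Dietz syndrome, and in the WT group they carried no such allele. Both kinds of donor cell were injected into wild-type CD45.1 hosts, whose drinking water contained ovalbumin (1.5%) over 7 days. On day 8 the donor CD4+ T cells (CD45.2+, CD45.1-, CD8-) were sorted from the hosts' Peyer's patches, where gut antigens meet B cells and follicular T cells. Because the hosts were wild type, the allele was present in the transferred T cells and not in the host tissue. Each group had 2 sequenced gene-expression libraries (mutant 1 and mutant 2, and WT 1 and WT 2). The labels do not say whether each came from a separate animal. A p-value here therefore sets a genotype difference against the spread between these libraries, part of which may be technical.

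These genes encode the signals by which a helper T cell acts on its neighbours. Ifng (interferon gamma) and Tnf (tumour necrosis factor) are the inflammatory products of type 1 responses, Il10 restrains inflammation and is made by regulatory and other effector T cells, and Il2 drives T cell growth and is transcribed briefly after receptor engagement. Csf1 is the growth factor of macrophages, Lif is a member of the IL-6 family that signals through Il6st, Tnfsf8 is CD30 ligand and Tnfsf11 is RANK ligand, which in Peyer's patches is known from stromal cells that act on the overlying epithelium. In follicular helper (Tfh) cells of Peyer's patches the help to B cells is carried mainly by Il21 and Il4, and TGF-beta signalling is known to restrain several T cell effector programmes.

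After filtering, 2972 T cells were kept: 882 from mutant 1, 182 from mutant 2, 1277 from WT 1 and 631 from WT 2. Their totals were 7856304, 1705481, 12053787 and 5724539 UMIs (unique molecular identifiers, one per captured transcript), with median depths between 8638 and 9034 UMIs per cell. A UMI of a Cd3 gene was present in 99.9% of the kept cells, and Cd4 in 83.5% to 90.1% of the cells of a library. For the CD8- side of the sort, Cd8a was in at most 0.55% of the cells of a library. Cd8b1 was in 3.06% and 1.65% of the cells of mutant 1 and mutant 2, and in 5.64% and 4.28% of WT 1 and WT 2. Libraries differed in quality and handling: mutant 2 was small, 41.4% of the barcodes of mutant 1 exceeded 10% mitochondrial UMIs against 22.0% in mutant 2, 25.5% in WT 1 and 37.4% in WT 2, and only the WT matrices held antibody tags, so that tagging and genotype cannot be told apart. Across libraries, 23 cell barcodes occurred more than once. A cluster of 105 cells led by B cell and epithelial genes (24.8% with a Cd3 UMI) was set aside. It was used as a background, although it is an imperfect one; within the kept T cells the 9 B cell markers together reached 170 to 345 CPM (counts scaled to a total of 1000000) and the 11 epithelial markers 7.80 to 19.3, against 11867 and 12488 in that cluster.

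Of the 8 cytokine genes, Csf1 was the only one whose level differed between genotypes past the threshold over all kept T cells, and it was higher in the mutant libraries. Summed over the kept T cells and scaled by TMM, Csf1 had 62.5 and 40.8 CPM in mutant 1 and mutant 2, against 18.9 and 27.4 CPM in WT 1 and WT 2. In CPM both mutant libraries stood above both WT libraries. The share of cells with a Csf1 UMI was 23.0% in mutant 1 and 14.3% in mutant 2, against 9.48% in WT 1 and 13.3% in WT 2. With cells thinned to 3000 UMIs it was 12.5% and 5.00% in mutant, against 3.96% and 5.55% in WT, so there the genotypes overlapped. Thinned to 2000 UMIs it was 9.80% and 6.10% in mutant, against 3.06% and 4.49% in WT, without overlap. The mutant 2 shares rested on 8 cells with Csf1 at 3000 UMIs and 10 at 2000 UMIs. The mean was 51.7 ± 15.4 CPM in mutant and 23.2 ± 5.99 CPM in WT (SD, n = 2 each), and the log2 fold change was 1.25 ± 0.20 (SE; adjusted p = 0.00343, edgeR quasi-likelihood test, with Benjamini-Hochberg adjustment over 10727 genes). All 8 passed the filter on low counts. In edgeR 4 of them (Csf1, Lif, Ifng and Il10) had an unadjusted p under 0.05, as did 1354 of the 10727 genes. So 1 of the 8 was called, where 1.44% of all tested genes passed in either direction, and their median log2 difference was -0.24 against -0.001 over all genes tested. The call was lost without mutant 1 (log2 difference 0.83, adjusted p = 0.139), when 10 of the 12 clusters were given the same weight in each library and clusters 10 and 12, with under 5 cells in a library, were left out (0.80, adjusted p = 0.346 by limma), and with the B and epithelial cluster added back, a setting in which no gene of 11095 passed (Csf1 1.21, adjusted p = 0.394; 958 genes at an unadjusted p under 0.05, and DESeq2 was not run on that set).

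**Figure D1:**
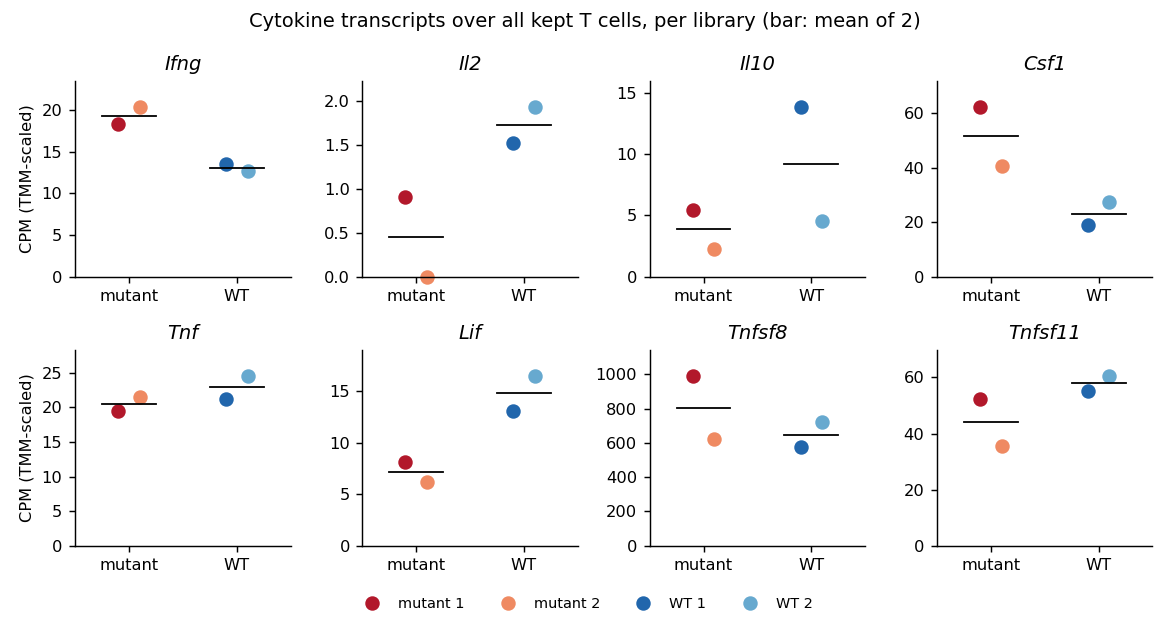
Each panel plots 1 gene: TMM-scaled CPM over all kept T cells (vertical axis) for the 2 mutant libraries (left) and the 2 WT libraries (right), with a bar at each group's mean. Csf1 lies at 40.8 to 62.5 CPM in mutant and 18.9 to 27.4 CPM in WT, while Lif lies lower in both mutant libraries and Tnf, Il10 and Tnfsf8 overlap between the genotypes.

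A feature that these messengers share, and that choosing them by name did not use, is the pentamer ATTTA in the 3′ UTR, the core of the AU-rich elements through which proteins such as Zfp36 shorten the life of cytokine messengers. Below is, for each gene, the 30-base stretch of the 3′ UTR with the most copies (GENCODE M21, GRCm38, read 5′ to 3′ on the gene's strand, ATTTA in capitals, overlapping copies counted). The genes are ordered from the densest stretch to the sparsest.
Tnf, chr17:35199676-35199705 (minus strand): ATTTAttATTTATTTAttATTTATTTAttt
Il2, chr3:37121038-37121067 (minus strand): ATTTATTTAaatATTTAactttaATTTAtt
Ifng, chr10:118445335-118445364 (plus strand): ATTTAttaatATTTAaaactATTTAtatgg
Lif, chr11:4272414-4272443 (plus strand): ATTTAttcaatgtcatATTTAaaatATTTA
Csf1, chr3:107741096-107741125 (minus strand): ATTTAaatatctATTTAaaaaataggaagc
Tnfsf8, chr4:63832465-63832494 (minus strand): ATTTAtctttttctctttttcttcATTTAt
Il10, chr1:131024397-131024426 (plus strand): ATTTAttacctctgatacctcagttcccat
Tnfsf11, chr14:78277976-78278005 (minus strand): ATTTAaaaatgtctcactgttgacatattt
The Tnf stretch held 5 copies, a density reached by 0.274% of 20786 annotated 3′ UTRs, and the Il2 stretch held 4 (0.597%). Ifng and Lif reached 3 copies (2.57% of 3′ UTRs), Csf1 and Tnfsf8 reached 2 (18.8%), and Il10 and Tnfsf11 had no stretch with more than 1 (65.6% of 3′ UTRs have at least 1), although each of these UTRs held 6 copies in all. Csf1, Tnfsf8 and Il10, whose levels are described most fully below, were thus not among those with the densest stretches. A match describes the sequence and is not a measured binding site.

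To compare detection between cells of unequal depth, every cell was thinned to 3000 UMIs, which left out 87 shallower cells (34 of mutant 1, 22 of mutant 2, 13 of WT 1 and 18 of WT 2). At this depth Tnfsf8 was detected in 70.5% of 2885 cells, Tnfsf11 in 13.1%, Csf1 in 6.86%, Tnf in 173 cells, Lif in 3.50%, Ifng in 3.40%, Il10 in 1.28% and Il2 in 0.208%. Without thinning, at a median of 8764 UMIs, the shares were 88.3%, 30.7%, 14.6%, 14.4%, 8.14%, 7.40%, 2.09% and 0.774% in the same order. In the B and epithelial cluster (63 cells at 3000 UMIs, unthinned median 3931) Tnfsf8 was detected in 6.35%, Tnf in 3.17% and Lif and Tnfsf11 in 1.59% each, while Ifng, Il2, Il10 and Csf1 were in none of the 63, which allows shares of up to 4.76%. That bound is above the shares of Il10, Il2 and Ifng over all T cells, so for these genes the values by cluster of T cells carry more than the total share. A bound for a count of 0 is here 3 divided by the number of cells, which is below the upper limit of the 95% exact interval (5.69% for these 63 cells). Intervals and bounds cover counting error only.

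The cells fell into 12 clusters, made without the 8 genes among the variable genes. Clusters 0 and 1 were Tfh-like (825 cells), 4 and 6 recently stimulated-like (611 cells, with the immediate-early genes Egr3 and Nr4a1 or with Myc and Tnfrsf9), 2 naive or memory-like (372), 7 cytotoxic or Th1-like (132, Eomes and Nkg7), 10 gut effector-like (94, Itgae, Cxcr6 and also Gzmb and Foxp3), and 11 and 12 proliferating-like (106). Cluster 10 was named by its gut effector markers, but the regulatory T cell markers Foxp3, Il2ra and Capg also led it. A Foxp3 UMI was in 67 of its 94 cells. Clusters 3, 5 and 8 kept their numbers, since too few markers led them. Cluster 8 (120 cells) was shallow, with a median of 3359 UMIs, against 6987 to 14994 in the others. Its median of mitochondrial UMIs was 7.47%, against 3.83% in the next highest, cluster 0, and Gm42418 and Lars2 led it. It held 57 and 28 cells of mutant 1 and mutant 2, against 15 and 20 of WT 1 and WT 2. Of its cells, 74 were deep enough for 3000 UMIs.

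**Figure D2:**
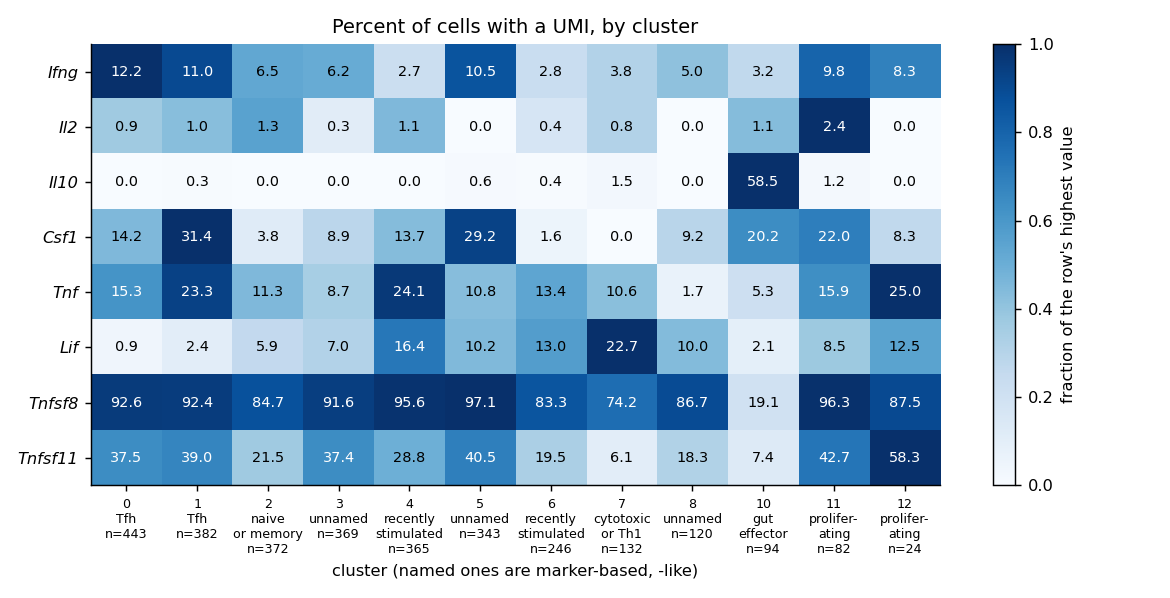
The grid gives the percent of cells with at least 1 UMI of each gene (rows) in each cluster of kept T cells (columns, with the number of cells), without thinning; the shade is each row's value relative to its highest. Il10 stands in cluster 10 at 58.5%, Tnfsf8 is lowest there at 19.1%, and Csf1 is at 0.0% in cluster 7, where Lif is at 22.7%.

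Il10 was nearly confined to 1 cluster. Of its 236 UMIs, 94.5% came from the gut effector-like cluster 10, where 55 of 94 cells carried it; the other 7 of the 62 Il10 cells were spread over clusters 1, 5, 6, 7 and 11. At 3000 UMIs per cell 41.1% of cluster 10 was positive (95% exact binomial interval 30.8% to 52.0%), and none of the cells of any other cluster was. The bound of 3 divided by the number of cells was 0.677% for cluster 0 and 12.5% for the smallest, cluster 12. The cells with Il10 were also cells with Foxp3, the transcription factor of regulatory T cells: 45 of the 62 Il10 cells had a Foxp3 UMI. Within cluster 10, Il10 was found in 44 of 67 cells with Foxp3 and in 11 of 27 without it, whereas outside the cluster 1 of 95 cells with Foxp3 carried Il10. Foxp3 is among the genes that lead cluster 10, so these counts are a description. Il10 cells tended to hold several copies: 32 of the 62 held 3 or more, and these held 83.9% of the UMIs.

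The share of cluster 10 cells with Il10 was alike in the 3 libraries that had more than a few of these cells. Mutant 1 had 11 positive cells of 17, against 34 of 59 in WT 1 and 10 of 15 in WT 2, and mutant 2 had only 3 cells in the cluster, none with Il10. Over all kept T cells the sums were 42 and 4 UMIs in mutant 1 and mutant 2, against 164 and 26 in WT 1 and WT 2. Scaled, these were 5.44 and 2.27 CPM in mutant and 13.9 and 4.57 CPM in WT, so the genotypes overlapped, and WT 1 alone was high. The log2 difference was -1.04 ± 0.41 with an adjusted p of 0.282 in edgeR. It followed WT 1: without WT 1 it was -0.03 (adjusted p = 1.00), and without WT 2 it was -1.54 (adjusted p = 0.00112). Gut effector-like cells were 17 of 882 and 3 of 182 kept cells in mutant, against 59 of 1277 and 15 of 631 in WT. Their part in the Il10 difference was not tested.

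Csf1 was detected in 434 cells, of which 118 held 3 or more UMIs, up to 14. It was made by several clusters. Levels within clusters are CPM of that cluster's own UMIs in a library, without TMM. The highest mean levels over libraries were in cluster 10 (95.2 CPM), cluster 5 (75.4, led by Lpar3, Angptl2 and Gpm6b) and the Tfh-like cluster 1 (62.7). Their ranges over libraries overlapped, at 40.3 to 153 CPM in cluster 10, 32.3 to 128 in cluster 5 and 27.8 to 91.4 in cluster 1. Mutant 2, with 3 cells in cluster 10, was left out of that cluster's mean. At 3000 UMIs per cell Csf1 was found in 13.5% of cluster 5, 12.5% each of cluster 1 and the proliferating-like cluster 11, 11.1% of cluster 10, 7.76% of cluster 4 and 7.00% of the other Tfh-like cluster, 0. It was found in 1.08% of the naive or memory-like cells and 0.816% of cluster 6. In the cytotoxic or Th1-like cluster 0 of 129 cells at that depth carried it, which allows up to 2.33%. Cells with an Il4 UMI held Csf1 more often (14.1%) than cells without (5.54%), and so did cells with an Il21 UMI (10.5% against 5.39%). The Il4 difference had the same direction in all 4 libraries: Csf1 was in 32 of 178 cells with Il4 and 74 of 670 without in mutant 1, 3 of 27 and 5 of 133 in mutant 2, 13 of 135 and 37 of 1129 in WT 1, and 15 of 106 and 19 of 507 in WT 2. The difference was not split by cluster.

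Within clusters, of the 7 with at least 10 cells in every library, both mutant libraries had more Csf1 than both WT libraries in clusters 1, 3, 4 and 5, and the genotypes overlapped in clusters 0, 2 and 8. In cluster 4 the levels were 98.4 and 25.3 CPM in mutant 1 and mutant 2, against 18.3 and 16.2 in WT 1 and WT 2. In cluster 5 they were 128 and 74.9 in mutant and 65.9 and 32.3 in WT. In cluster 3 they were 30.005 and 43.5 in mutant and 14.2 and 7.67 in WT. Mutant 1 was therefore far above the other 3 libraries in cluster 4. The values of mutant 2 rested on few cells, with 9 UMIs in 4 of 31 cells in cluster 3. It had 5 UMIs in 2 of 22 cells in cluster 4 and 10 UMIs in 3 of 14 cells in cluster 5. The share of cluster 5 cells with Csf1 was 37.1% in mutant 1 and 21.4% in mutant 2, against 27.9% in WT 1 and 22.7% in WT 2. In the Tfh-like cluster 0 the levels were 26.4 and 30.2 CPM in mutant and 23.0 and 31.3 in WT, and in cluster 1 they were 65.9 and 91.4 in mutant and 27.8 and 65.5 in WT, so that mutant 1 and WT 2 lay close together there. The mix of cells also differed, since cluster 1, rich in Csf1, held 222 of the 882 cells of mutant 1 and 26 of the 182 of mutant 2, against 68 of 1277 in WT 1 and 66 of 631 in WT 2.

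**Figure D3:**
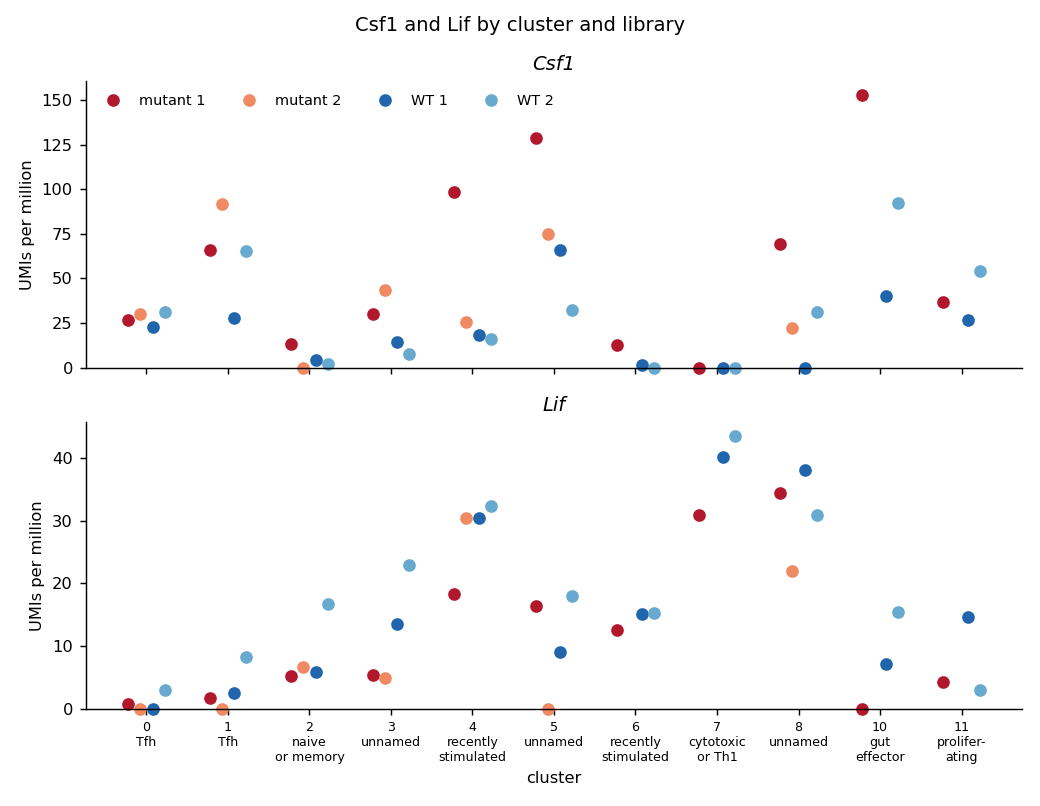
Points give Csf1 (top) and Lif (bottom) in CPM within the cluster (vertical axis) for each library within each cluster (horizontal axis), for library and cluster pairs with at least 10 cells; mutant libraries are drawn left of WT libraries. Csf1 of mutant 1 reaches 98.4 in cluster 4 where the other libraries lie at 16.2 to 25.3, and Lif lies at 0 to 2.93 in cluster 0 and at 0 to 8.19 in cluster 1.

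There were 3 classes that had at least 20 kept cells in every library, and each was tested by itself. In the recently stimulated-like class, 0.849% of 7773 tested genes passed and Csf1 was the only one of the 6 cytokine genes tested there to do so. It had 88.9 and 17.9 CPM in mutant 1 and mutant 2, against 7.84 and 9.78 CPM in WT 1 and WT 2, from 99 and 5 UMIs in mutant and 24 and 11 in WT. The log2 difference was 2.81 ± 0.36 (edgeR adjusted p = 4.73e-05), and it rested on mutant 1: without it the value was 0.96 (adjusted p = 0.734), and without WT 1 it was 2.50 (adjusted p = 0.702), a setting in which 1 gene passed. The class held mostly cluster 4 in mutant 1 (127 of 141 cells) and mostly cluster 6 in WT 1 (183 of 314 cells); in cluster 4 alone the difference was 2.02 (adjusted p = 1.55e-07, an alternative added after the data were seen).

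In the Tfh-like class 0.379% of 8965 genes passed, and none of the 5 cytokine genes tested did in edgeR or DESeq2 (2 had an unadjusted p under 0.05 in edgeR, Csf1 and Tnfsf11). Csf1 had 54.6 and 60.9 CPM in mutant and 24.8 and 45.1 CPM in WT, a log2 difference of 0.70 ± 0.23 that did not pass (adjusted p = 0.287). It was 0.32 without WT 1 and 1.16 without WT 2, and 0.05 in cluster 0 alone. In cluster 3, where 0.0327% of 6125 genes passed, Csf1 had 31.2 and 46.1 CPM in mutant and 14.4 and 7.88 CPM in WT (log2 difference 1.31 ± 0.39, adjusted p = 0.469). None of the 3 cytokine genes tested in cluster 3 passed in edgeR or DESeq2, with an unadjusted p under 0.05 for Csf1 and Tnfsf11 in edgeR. The test of the difference itself, the genotype effect in Tfh-like cells minus that in recently stimulated-like cells, passed for 1.04% of 8962 genes. For Csf1 it was -2.04 ± 0.36 (adjusted p = 3.45e-05), the effect being smaller in Tfh-like cells. Without mutant 1 it was -0.03 (adjusted p = 0.993), so this difference too rested on that library.

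**Figure D4:**
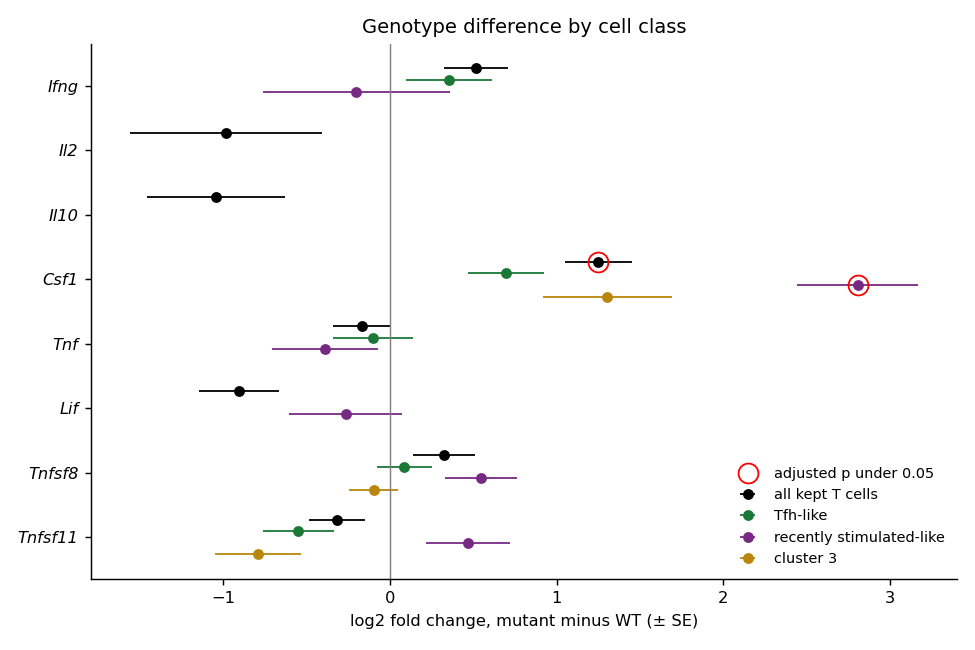
Points give the log2 fold change, mutant minus WT, with its SE (horizontal axis) for each gene (vertical axis) over all kept T cells and within 3 classes of cells; a gene too scarce to be tested in a class has no point there. Red rings mark adjusted p under 0.05, which only Csf1 has, over all kept T cells (1.25) and in recently stimulated-like cells (2.81).

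The sequence upstream of Csf1 is shown because it is the only one of the 8 genes that passed. Capitals mark matches, on either strand, to the NFAT core GGAAA, the AP-1 site TGANTCA and the NF-kappaB pattern, which is GGGA, any 2 bases and TTCC, in the 250 bases before the start of the gene (RefSeq, GRCm38.p6).
Csf1 promoter, chr3:107760470-107760719 (minus strand): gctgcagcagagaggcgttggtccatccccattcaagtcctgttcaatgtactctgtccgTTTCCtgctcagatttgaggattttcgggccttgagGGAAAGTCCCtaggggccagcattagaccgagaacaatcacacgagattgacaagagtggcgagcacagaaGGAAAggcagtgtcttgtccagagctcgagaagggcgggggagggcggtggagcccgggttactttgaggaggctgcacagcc
It held 3 NFAT cores, a short pattern present in 55.6% of 32851 promoters of that length, and an NF-kappaB match, present in 1.21%, which overlaps one of the cores. No AP-1 match was in this window (6.75% of promoters have one). A match is a description of the letters and not a measured binding site.

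Lif was scarce in Tfh-like cells and most frequent in the cytotoxic or Th1-like cluster. It was detected in 242 cells, mostly as single UMIs (77.3% of them). At 3000 UMIs per cell it was found in 10.1% of the cytotoxic or Th1-like cluster 7 and 6.93% of the recently stimulated-like cluster 4, followed by 5.41% of cluster 8, 4.69% of cluster 5 and 4.49% of cluster 6, against 0.451% and 0.796% of the Tfh-like clusters 0 and 1. In cluster 7 the levels were 30.9 CPM in mutant 1, with 40.3 in WT 1 and 43.6 in WT 2 (mutant 2 had 6 cells there). Cells with a UMI of Nkg7, a granule gene of cytotoxic cells, carried Lif in 7.10% against 3.26% of other cells, and cells with Egr3, an immediate-early gene of receptor signalling, in 5.25% against 3.17%. The Nkg7 gap was uneven between libraries. In WT 1 Lif was in 4 of 109 cells with Nkg7 (3.67%) and 3.29% of the others. In WT 2 it was in 7 of 47 (14.9%) and 4.77%, and in mutant 1 in 2 of 21 (9.52%) and 2.54%. In mutant 2 none of the 6 cells with Nkg7 and none of the 23 with Egr3 had Lif.

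Over all kept T cells Lif had 8.16 and 6.23 CPM in mutant 1 and mutant 2, against 13.1 and 16.5 CPM in WT 1 and WT 2. Both mutant libraries were below both WT libraries, but the log2 difference of -0.91 ± 0.24 did not pass (edgeR adjusted p = 0.077). Over the alternatives run, the difference stayed negative, from -1.20 to -0.77, with adjusted p from 0.00918 (no filter on low counts) to 0.577 (DESeq2). It also passed when cells were limited to 5% mitochondrial UMIs (-1.15, adjusted p = 0.0465). Tfh-like cells, in which Lif was scarce, were 375 of 882 and 53 of 182 cells in mutant, against 210 of 1277 and 187 of 631 in WT. The part of this mix in the Lif difference was not tested. With the same weight for each of 10 clusters (10 and 12 left out), the difference was -0.91 (adjusted p = 0.418 by limma). In cluster 3 Lif had 3 and 1 UMIs in mutant and 21 and 12 in WT, too few to be tested.

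Ifng and Tnf, the type 1 cytokines, differed in the clusters where they were most frequent, and Ifng was scarcer in recently stimulated-like cells. Ifng was detected in 220 cells, and at 3000 UMIs per cell it was found in 6.09% of the Tfh-like cluster 0 5.00% of cluster 11 and 4.40% of cluster 5, against 2.22% and 1.22% of the recently stimulated-like clusters 4 and 6. None of 129 cytotoxic or Th1-like cells had an Ifng UMI at that depth, and 5 of 132 did without thinning (3.79%). In cells with an Egr3 UMI it was found in 1.75%, against 3.71% of cells without, but the libraries did not share that direction: 0 of 158 cells with Egr3 had it in mutant 1, 3 of 23 in mutant 2, 1 of 176 in WT 1 and 4 of 100 in WT 2, against 32 of 690, 7 of 137, 37 of 1088 and 14 of 513 without Egr3. Its level was 18.3 and 20.4 CPM in mutant 1 and mutant 2, against 13.5 and 12.7 CPM in WT 1 and WT 2. The mutant libraries were both higher, by a log2 difference of 0.51 ± 0.19 that did not pass (adjusted p = 0.248).

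Tnf was found in 10.8% of the recently stimulated-like cluster 4 at 3000 UMIs, but in 5.31% of cluster 6 of the same class. In the Tfh-like clusters 0 and 1 it was found in 7.22% and 6.10%, in cluster 2 in 6.22% and in the small cluster 12 in 3 of 24 cells. It was in 9.41% of cells with an Egr3 UMI against 5.35% of the others, a direction that mutant 2 (1 of 23 against 7 of 137) did not share. Tnf and Ifng met in 7 cells where 5.81 were expected from their shares within each library. Of 429 cells with Tnf, 335 held a single UMI. Its level over all kept T cells was 19.5 and 21.5 CPM in mutant and 21.2 and 24.6 CPM in WT. These values overlapped, with a log2 difference of -0.17 ± 0.17 (adjusted p = 0.726). In cluster 4 it had 24.3 and 40.5 CPM in mutant and 46.2 and 53.0 in WT, and in the recently stimulated-like class it was not past the threshold (-0.39 ± 0.32, adjusted p = 0.678).

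Il2 was close to undetected in these cells. Over the whole set, 36 UMIs were found in 23 cells, and 63.9% of them came from the 10 cells with the most. The sums were 7 and 0 UMIs in mutant 1 and mutant 2, against 18 and 11 in WT 1 and WT 2. These gave 0.906 CPM in mutant 1 and 1.52 and 1.93 CPM in the WT libraries. With so few counts the log2 difference of -0.98 ± 0.58 did not pass (adjusted p = 0.514), and finding none in 160 mutant 2 cells at 3000 UMIs allows up to 1.87% of them to have a UMI. Of the 6 cells with Il2 at 3000 UMIs, 5 also held Il21, a main cytokine of Tfh cells, which 826 of the 2885 cells held.

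Tnfsf8, CD30 ligand, was the most widespread of the 8, with 19710 UMIs in 2623 cells and up to 98 in a cell. At 3000 UMIs per cell it was found in 86.5% of cluster 5, 85.1% of cluster 8, 80.6% of cluster 4 and 71.1% to 75.4% of the Tfh-like clusters, in 38.8% of the cytotoxic or Th1-like cells and in 13.3% of the gut effector-like cells, the cluster that made Il10. Cells with a Foxp3 UMI carried it in 33.3%, against 71.7% of the others. In cluster 10 the levels were 180.8 CPM in mutant 1, 94.8 in WT 1 and 84.5 in WT 2, below every such value in cluster 5, where they ran from 911 to 1593.

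Between genotypes Tnfsf8 overlapped: it had 993 and 621 CPM in mutant 1 and mutant 2, against 578 and 720 CPM in WT 1 and WT 2. Mutant 1 was high, and mutant 2 lay between the WT libraries. The log2 difference was 0.32 ± 0.19 (adjusted p = 0.506), and without mutant 1 it was -0.08. In the recently stimulated-like class it had 1091 and 608 CPM in mutant and 499 and 696 CPM in WT (0.55 ± 0.21, adjusted p = 0.321), which passed without mutant 2 (0.87, adjusted p = 0.0157) and without WT 2 (0.79, adjusted p = 0.0483). In cluster 5 both mutant libraries were above both WT libraries, with 1593 and 1513 CPM in mutant and 916 and 911 in WT; mutant 2 had 14 cells there, and the cluster was not tested because of that.

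Tnfsf11, RANK ligand, was detected in 911 cells, of which 563 held a single UMI. At 3000 UMIs per cell it was found in 6 of 24 cells of cluster 12, 19.7% of cluster 3 and 18.1% of the Tfh-like cluster 0, and in 2.33% of cluster 7 and 2.22% of cluster 10. Like Tnfsf8 it was thus low in the cytotoxic or Th1-like and gut effector-like cells. Its level was 52.3 and 35.7 CPM in mutant 1 and mutant 2, against 55.1 and 60.6 CPM in WT 1 and WT 2, with both mutant libraries below both WT libraries. The log2 difference of -0.32 ± 0.17 did not pass (adjusted p = 0.458). It depended on the mutant libraries, at -0.71 without mutant 1 (adjusted p = 0.109) and -0.14 without mutant 2 (adjusted p = 0.739).

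The direction of the Tnfsf11 difference was not the same in all classes. In Tfh-like cells it had 59.2 and 24.7 CPM in mutant and 72.6 and 76.1 CPM in WT (log2 difference -0.55 ± 0.21, adjusted p = 0.450; -1.55 without mutant 1, adjusted p = 9.31e-04, and -0.32 without mutant 2, adjusted p = 0.530). In cluster 3 it had 62.4 and 30.7 CPM in mutant and 95.1 and 92.6 CPM in WT (-0.79 ± 0.26, adjusted p = 0.524; -1.57 without mutant 1). In recently stimulated-like cells it had 57.4 and 50.1 CPM in mutant and 40.5 and 38.2 CPM in WT (0.47 ± 0.25, adjusted p = 0.499), whereas in cluster 4 alone the difference was 0.10 (adjusted p = 0.990). The genotype effect in Tfh-like minus that in recently stimulated-like cells was -1.02 ± 0.31 (adjusted p = 0.0785).

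Most pairs of these cytokines met in the same cell about as often as their shares within each library give. At 3000 UMIs per cell, 30.2% of cells carried at least 1 of the 7 genes other than Tnfsf8, and 114 of 2885 (3.95%) carried at least 2. Among the 15 pairs with an expected number of at least 5 cells, 14 lay within 1.5 times of it. Pairs with Tnfsf8, found in 70.5% of cells, could not lie above that range, so for them only a shortfall could show. Csf1 and Tnfsf8 were together in 166 of the 198 cells with Csf1, where 145 were expected. Tnf and Tnfsf11 were together in 23 where 22.9 were expected. The exception was Il10 with Tnfsf8, found together in 7 cells where 25.2 were expected; counted within clusters the expected number was 4.86, so the gap lay between clusters. Ifng and Lif met in 1 cell where 3.25 were expected; without thinning they met in 9 where 17.7 were expected, or 13.4 within clusters.

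**Figure D5:**
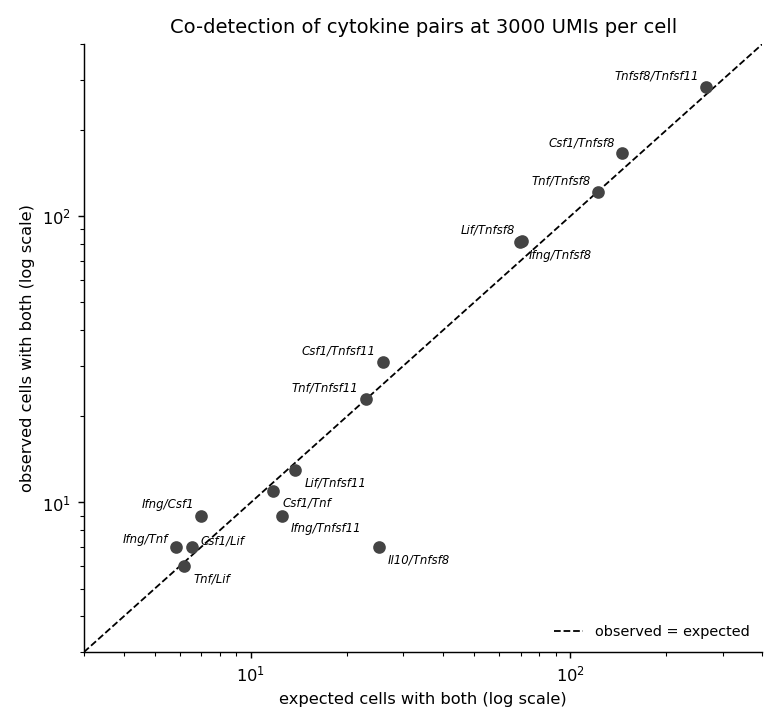
Each point is a pair of genes: cells with a UMI of both (vertical axis, log scale) against the number that the shares within each library give (horizontal axis, log scale), at 3000 UMIs per cell, for the 15 pairs with at least 5 expected. Points follow the dashed line of equality except Il10 with Tnfsf8, at 7 observed and 25.2 expected.

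The genes whose values followed each member most closely over kept T cells were sought by Pearson's r within each library, averaged over the 4 libraries (8537 genes with a UMI in at least 5% of cells; a description, since cells share depth and library). For Il10 they were Capg (mean r 0.35), which is among the regulatory T cell markers, Lztfl1 (0.26), Gimap7 (0.21) and Furin (0.21). The lowest r in a library was 0.20 for Capg, but 0.03 for Lztfl1, 0.0004 for Gimap7 and 0.07 for Furin. Mutant 2 had only 2 cells with Il10. For Csf1 they were Tnfsf8 (0.24), Cd82 (0.23), Cd200 (0.23), Angptl2 (0.20) and Srgn (0.20). For Tnfsf8 they were Tbc1d4 (0.31), Angptl2 (0.29), Cd82 (0.28), Prkca (0.26) and Malt1 (0.25). Cd82 and Angptl2 thus stood beside both Csf1 and Tnfsf8, while for Ifng, Tnf, Lif and Tnfsf11 no gene reached a mean r of 0.2.

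Around these cytokines, most genes of the pathway did not pass between genotypes. Over all 10727 tested genes 1.44% passed in edgeR, and 1354 had an unadjusted p under 0.05. Of the receptors of the 8 cytokines, 11 of 15 could be tested and none passed in edgeR or DESeq2 (3 at an unadjusted p under 0.05 in edgeR, median log2 difference -0.10); the most abundant were Il2rg, the shared gamma chain (-0.10 ± 0.13), Il6st, through which Lif signals (0.12 ± 0.13), and Il2rb (0.20 ± 0.13). Of 32 other T cell cytokines and surface ligands, 16 were tested and 2 fell in edgeR, 1 of them also in DESeq2. An unadjusted p under 0.05 in edgeR was reached by 8 of the 16. Tnfsf4, OX40 ligand, fell to 29.3 and 40.8 CPM in mutant, against 84.4 and 59.2 CPM in WT (-1.12 ± 0.19, adjusted p = 0.00596; 0.00426 in DESeq2), a call lost without mutant 1 (-0.84, adjusted p = 0.131) and without WT 1 (-0.82, adjusted p = 0.0861). The chemokine Ccl5 fell to 2.33 and 0.567 CPM in mutant, against 22.0 and 4.92 CPM in WT (-2.72 ± 0.56, adjusted p = 0.0217; 0.657 in DESeq2). That call held without WT 2 and in no other fit with a library left out (-1.24 without WT 1). Ccl5 is a marker of the cytotoxic or Th1-like list, whose 12 genes together reached 141 and 152 CPM in mutant and 306 and 224 CPM in WT.

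Of 36 regulators of cytokine genes, 35 were tested, none rose and 3 fell in edgeR, 2 of them (Fos and Nr4a1) also in DESeq2. An unadjusted p under 0.05 in edgeR was reached by 15 of the 35. Fos, a subunit of AP-1, fell to 83.8 and 55.0 CPM in mutant, against 269 and 182 CPM in WT (-1.64 ± 0.19, adjusted p = 2.43e-04), and it passed with each library left out in turn (-2.06 to -1.34). Nr4a1, an immediate-early gene of receptor signalling, fell to 41.8 and 34.0 CPM in mutant, against 89.5 and 59.0 CPM in WT (-0.94 ± 0.19, adjusted p = 0.0180), a call that held without WT 2 only, at -0.60 without WT 1. Ahr, a ligand-activated transcription factor, fell to 16.3 and 19.3 CPM in mutant, against 37.5 and 31.1 CPM in WT (-1.002 ± 0.17, adjusted p = 0.00631; 0.0677 in DESeq2), a call lost without mutant 1 (-0.86) and without WT 1 (-0.84). The 11 markers of recently stimulated cells together reached 1097 and 723 CPM in mutant and 1020 and 959 CPM in WT, and their part in these differences was not tested. The 12 proteins that set cytokine messenger stability gave no call in edgeR or DESeq2 (1 at an unadjusted p under 0.05 in edgeR, median 0.03; the most abundant, Zfp36l1, Hnrnpd and Zfp36l2, at 0.11, -0.21 and 0.15).

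Genes that respond to the cytokines gave at most 1 call in a list. More of them had an unadjusted p under 0.05 in edgeR. They were 8 of 21 tested genes of the interferon gamma response and 8 of 16 of the IL-2 and STAT5 response. Of 21 tested genes of the interferon gamma response, 1 rose in edgeR and none in DESeq2 (median 0.18): Iigp1, an interferon-induced GTPase, with 54.2 and 14.2 CPM in mutant and 9.98 and 8.08 CPM in WT (2.09 ± 0.33, adjusted p = 0.00269 in edgeR and 0.784 in DESeq2), where mutant 1 was far above the rest. Without mutant 1 it was 0.59 (adjusted p = 0.335). Of 16 genes of the IL-2 and STAT5 response 1 rose, which is Csf1 itself, and the median was -0.46. Of 15 tested TNF and NF-kappaB targets none passed in edgeR or DESeq2 (6 at an unadjusted p under 0.05 in edgeR, median 0.27; Nfkbia -0.05, Bcl2a1b 0.02 and Nfkb1 0.27). Beside these, 154 of all 10727 genes passed, 97 higher and 57 lower in mutant.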

How the data were processed

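The authors deposited 10x 3′ single-cell matrices of 4 gene-expression libraries, which hold raw UMI counts for each gene and barcode. The submitters' processing notes name Cell Ranger 6.0.0, the build mm10 and Seurat 4. The 3′ ends are counted, so counts were not divided by length. The series holds 2 further WT samples labelled as hashtag samples, not analysed here, and the 3 antibody tags in the WT matrices were left out.

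Barcodes needed 500 detected genes or more and no more than 10% mitochondrial UMIs (3108 of 4803 barcodes), and 31 doublets called by Scrublet in scanpy 1.11.5 were removed. The remaining 3077 cells were clustered with leidenalg 0.10.2 (resolution 0.8, 30 principal components, 15 neighbours, 1749 variable genes without the 8 described; 4 of these had been among the 2000 variable genes). Clusters were named from fixed markers: 3 or more had to be in the top 50 genes, enriched 2-fold and present in 20% of the cells. Removing the B and epithelial cluster left 2972 cells. Sums of counts per library went through filterByExpr and TMM into edgeR 4.0.16 (quasi-likelihood test, prior count 2, Benjamini-Hochberg at 0.05, mutant minus WT); the difference between classes was fitted with library as a block. The test was checked on simulated data. DESeq2 1.42.0 and limma 3.58.1 (log2 of CPM + 1) served as alternatives, as did other filters, depths and clusterings. Library totals of 1705481 to 12053787 UMIs set the precision, which is lowest for mutant 2. With 2 libraries against 2 no exact permutation test can pass, so detection, clusters and pairs are described without tests. Named genes were the 8, genes of each list past the threshold or else its 3 most abundant, and the 5 most like each member with a mean r of at least 0.2. The genes described and the lists were chosen with earlier results of these data known.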

Additional observations from a re-analysis of the deposited data

Results flagged for a closer look

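The genotype effect on Csf1 differed between classes of cells by the test of the difference itself. In Tfh-like minus recently stimulated-like cells it was -2.04 on the log2 scale (adjusted p = 3.45e-05, edgeR). The values behind it are 54.6 and 60.9 CPM in mutant and 24.8 and 45.1 CPM in WT among Tfh-like cells, and 88.9 and 17.9 CPM in mutant and 7.84 and 9.78 CPM in WT among recently stimulated-like cells. The high value of mutant 1 carried it, since without that library it was -0.03 (adjusted p = 0.993); over the other alternatives it ran from -2.48 to -1.77, with adjusted p from 5.28e-08 to 0.0137.

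Tnfsf11 moved in opposite directions in recently stimulated-like cells, where both mutant libraries were above both WT libraries, and in cluster 3, where both were below. The 2 log2 differences lay 1.26 apart, and the difference between them was not tested. Neither passed by itself (0.47, adjusted p = 0.499, and -0.79, adjusted p = 0.524), and in cluster 4, which holds most recently stimulated-like cells of the mutant libraries, the difference was 0.10.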

How the results depend on the processing

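The count of genes called over all kept T cells (154) depended on the processing. It was 63 with DESeq2, 411 without a filter on low counts, 94 with doublets kept, 0 with the B and epithelial cluster kept (958 genes at an unadjusted p under 0.05) and 19 at equal shares of 10 clusters; leaving out 1 library gave 22 to 267. In Tfh-like cells (34) it was 1 with DESeq2, 97 without the filter, 22 in cluster 0 alone, 9 in cluster 1 alone and 4 to 198 with a library left out. In recently stimulated-like cells (66) it was 5 with DESeq2, 112 without the filter, 21 in cluster 4 alone and 1 to 177 with a library left out. In cluster 3 (2) it was 34 without the filter and 4 to 49 with a library left out, and for the difference between classes (93) it was 8 to 103. The causes were not tested. Fits that leave out a library assume that the lone library varies like the pair of the other genotype.

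With the replicate number as a block, 381 genes were called over all kept T cells, 42 in Tfh-like cells, 154 in recently stimulated-like cells and 2 in cluster 3. The numbers share only a label, since same-numbered libraries did not deviate together (r = 0.03 over genes, 2 pairs). Under the block Lif (-0.88, adjusted p = 0.0418) and Il10 (-1.23, adjusted p = 0.0166) passed over all kept T cells, as did Csf1 there and in recently stimulated-like cells.

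Of the cytokines, Csf1 over all kept T cells passed in 12 of 15 fits (0.80 to 1.49) and Lif in 3 of 15; Il10 passed in 3 of 15 and changed sign at equal shares of 10 clusters (1.57), a setting without clusters 10 and 12. In Tfh-like cells Csf1 passed without mutant 2 (0.66, adjusted p = 0.0473) and Tnfsf11 without mutant 1. Leaving out a library turned the sign of these differences, none of which passed either way: Tnfsf8 over all kept T cells (-0.0821 to 0.613), in Tfh-like cells (-0.28 to 0.34) and in cluster 3 (-0.38 to 0.0406), Tnf in Tfh-like cells (-0.29 to 0.17), Ifng in recently stimulated-like cells (-0.81 to 0.88) and in the difference between classes (-0.30 to 1.10), and Lif in that difference (-1.42 to 0.34).

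Members found in at least 5% of cells of every library numbered 3 at 3000 UMIs, 2 at 2000 and 5 without thinning. Pairs more than 1.5 times from the expected number were 1 of 15 at 3000 UMIs, 3 of 11 at 2000, 4 of 22 without thinning and 0 of 14 within clusters, the last chosen after seeing the data. At 3000 UMIs and without thinning, pairs with Tnfsf8 could not lie that far above the expected number. The share of Il10 UMIs in the gut effector-like cluster was 94.5%, and 91.9% at resolution 0.4. No recently stimulated-like class or cluster 3 was matched at that resolution, DESeq2 gave no adjusted p for Csf1 in recently stimulated-like cells, and Csf1 there fell below the filter without the richest cell of each library, so these values are missing. Mutant 2, with 182 cells, sets the depth limit: 0 of its 160 cells with a UMI at 3000 UMIs allows up to 1.87% of them to have one, which limits cells with a UMI and not cells that express the gene.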
